A study of Mus musculus with 6 samples.

Results

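Genes that mark vascular smooth muscle cells and pericytes were read in RNA-seq of lymphatic endothelial cells (LECs) sorted from the mouse dura mater. The set held 10 genes of the 55401 in the deposited tables: *Acta2*, *Tagln*, *Myh11*, *Cnn1*, *Des*, *Rgs5*, *Abcc9*, *Pdgfrb*, *Cspg4* and *Mcam*. They were picked by gene name as textbook markers and were found in the tables under those names, and all 10 passed the filter on low counts. Each member is a protein-coding gene.

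Wild-type male C57BL/6J mice had received an adeno-associated virus (AAV9) into the cisterna magna at 4 wk of age. The virus encoded VEGF-C, a growth factor for lymphatic vessels (AAV-VEGF-C), or, in the control group (AAV-CTRL), a soluble fragment of its receptor VEGFR-3 fused to an immunoglobulin tail, which does not bind VEGF-C. Control animals thus also made a secreted protein from a vector. The LECs were gated as CD31+, Podoplanin+, LYVE-1+ and CD45- cells, and 10 to 12 meninges were pooled for each library. There were 3 libraries per group, numbered 1 to 3 in both groups after the repeat of the experiment.

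Smooth muscle cells and pericytes are together called mural cells, because they sit on the outer wall of vessels. Smooth muscle cells encircle arteries, veins and collecting lymphatic vessels and contract through actin and myosin filaments, whereas pericytes lie along capillaries and depend on platelet-derived growth factor (PDGF) from the endothelium. Initial lymphatic vessels, which take up fluid, carry little or no mural coverage. Neither cell type carries the antigens of the LEC gate as its usual markers.

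Total counts ranged from 6530269 to 12399498 in AAV-CTRL, whereas AAV-VEGF-C libraries had 564475 to 3261935, so that depth and treatment cannot be told apart. TPM, the share of transcripts after correction for gene length, sets levels of different genes side by side. The lymphatic markers were found in every library. *Prox1*, the transcription factor of lymphatic identity, ranged from 6.44 to 14.1 TPM in AAV-CTRL and from 3.15 to 9.62 TPM in AAV-VEGF-C, and *Lyve1*, *Pdpn* and *Pecam1*, which encode the gated antigens, stayed at or above 9.61, 5.17 and 12.2 TPM. *Ccl21a*, a chemokine gene and the most abundant lymphatic marker, ranged from 82.1 to 352 TPM over the 6 libraries. The libraries of experiment 1 stood apart in both groups. *Ptprc*, which encodes the pan-leukocyte antigen CD45, had 0.119 TPM in AAV-CTRL 1 and 0.337 TPM in AAV-VEGF-C 1 against 9.81 to 25.7 TPM in the other 4 libraries. Several mural genes were likewise low in AAV-CTRL 1. Fits without AAV-CTRL 1 and without both libraries of experiment 1 are given for *Rgs5*, *Myh11* and *Mcam*.

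The summed TPM of the 10 mural genes was 83.0, 112 and 285 in AAV-CTRL 1, 2 and 3 against 13.4, 37.8 and 86.4 in AAV-VEGF-C 1, 2 and 3. The groups overlapped by a narrow margin, because AAV-VEGF-C 3 lay above AAV-CTRL 1. The mean sum was 3.49 times higher in AAV-CTRL. The sum of 8 lymphatic endothelial markers was 2.30 times higher there as well, without overlap, so TPM sums of both kinds were lower in AAV-VEGF-C. Such a shift was common, because 61.4% of tested genes averaging 5 TPM or more lay lower in AAV-VEGF-C without overlap. The part of that shift in the mural sum was not tested. In bulk RNA, fewer cells of a type and less RNA per cell cannot be told apart.

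**Figure D1:**
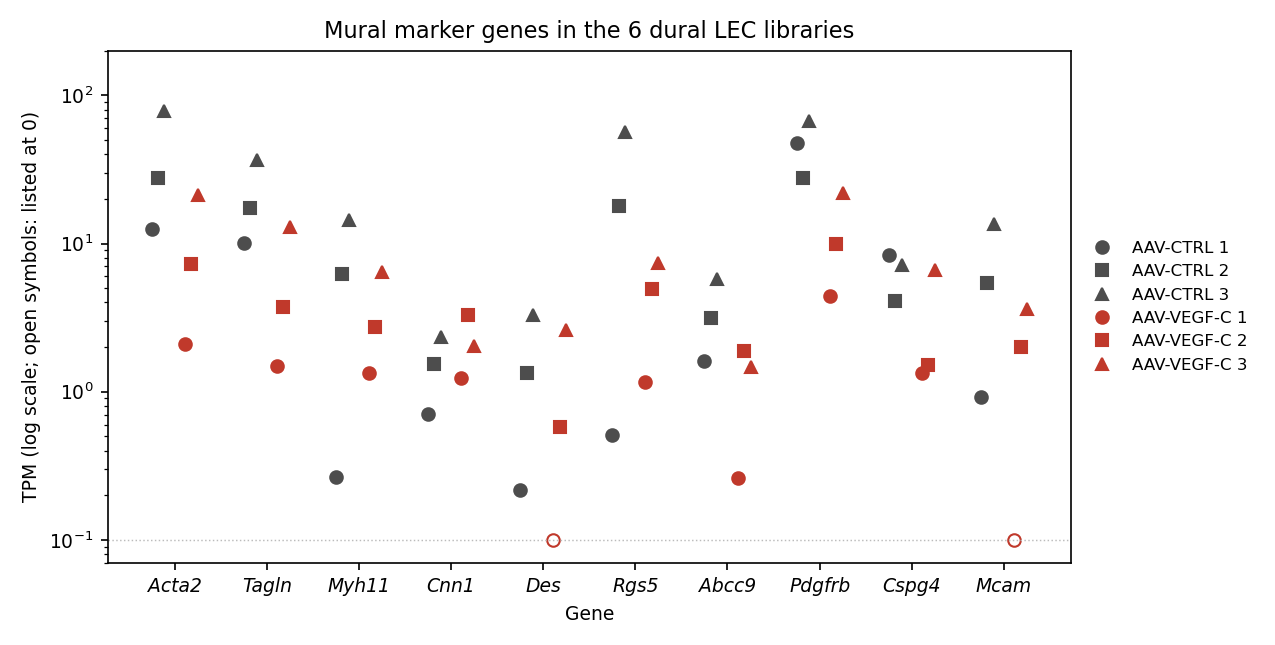
TPM (log axis) of each mural marker gene in the 6 libraries, with AAV-CTRL in grey and AAV-VEGF-C in red, and circles, squares and triangles for experiments 1, 2 and 3; open symbols mark a gene listed at 0. *Pdgfrb* is the only gene whose red and grey symbols do not overlap, and the grey circle of AAV-CTRL 1 lies far below the other grey symbols for *Myh11*, *Rgs5*, *Des* and *Mcam*.

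In AAV-CTRL, mean TPM followed the order *Pdgfrb*, *Acta2*, *Rgs5*, *Tagln*, *Myh11*, *Mcam*, *Cspg4*, *Abcc9*, *Des* and *Cnn1*. The step between neighbours exceeded the larger of their SDs only from *Tagln* to *Myh11* and from *Cspg4* to *Abcc9*. In AAV-VEGF-C the order was *Pdgfrb*, *Acta2*, *Tagln*, *Rgs5*, *Myh11*, *Cspg4*, *Cnn1*, *Mcam*, *Abcc9* and *Des*, and no step exceeded the SD. *Pdgfrb* or *Acta2* was the highest of the 10 in each library.

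The groups were set against each other gene by gene to ask whether mural transcripts differed between the sorted fractions. Fold changes and tests below come from edgeR on counts scaled by TMM factors (trimmed mean of M values), a scale on which the typical gene is set equal between libraries. The main fit held the group alone, and a block by replicate number was an alternative. None of the 10 genes was called at an adjusted p under 0.05, in a fit of 17459 genes in which 11.2% were called, 10.5% higher and 0.659% lower in AAV-VEGF-C. At an unadjusted p under 0.05, 1 of the 10 (*Pdgfrb*, lower) passed and none was higher, against 28.1% of all tested genes, 9.11% lower and 19% higher. DESeq2 called *Pdgfrb* alone among the 10, while limma on log2 TPM called none. With the replicate block none was called, and 5 (*Acta2*, *Tagln*, *Abcc9*, *Pdgfrb* and *Mcam*) were lower at an unadjusted p under 0.05, against 11.3% of tested genes in that fit. The log2 fold change was negative for 8 members and positive for *Des* and *Cnn1*, with a median of -0.77. Scaled on the 2000 most abundant genes, which moved the median of all genes to 0.35 and that of the members to -0.42, *Cspg4* and *Myh11* were positive too. Over all tested genes the median was -0.0037, but over the 7234 genes averaging 5 TPM or more it was -0.41, and 76.0% of those were negative.

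Set against genes of like level, the median of the members lay below the class median in all 3 classes that held members. The 5 members between 1 and 5 TPM had a median log2 fold change of -0.23 against 0.12 for the class. *Tagln*, *Myh11* and *Rgs5*, between 5 and 20 TPM, had a median of -0.93 against -0.39, and *Acta2* and *Pdgfrb*, at 20 TPM and over, had -0.84 against -0.49. These medians are descriptions of few genes and were not tested.

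**Figure D2:**
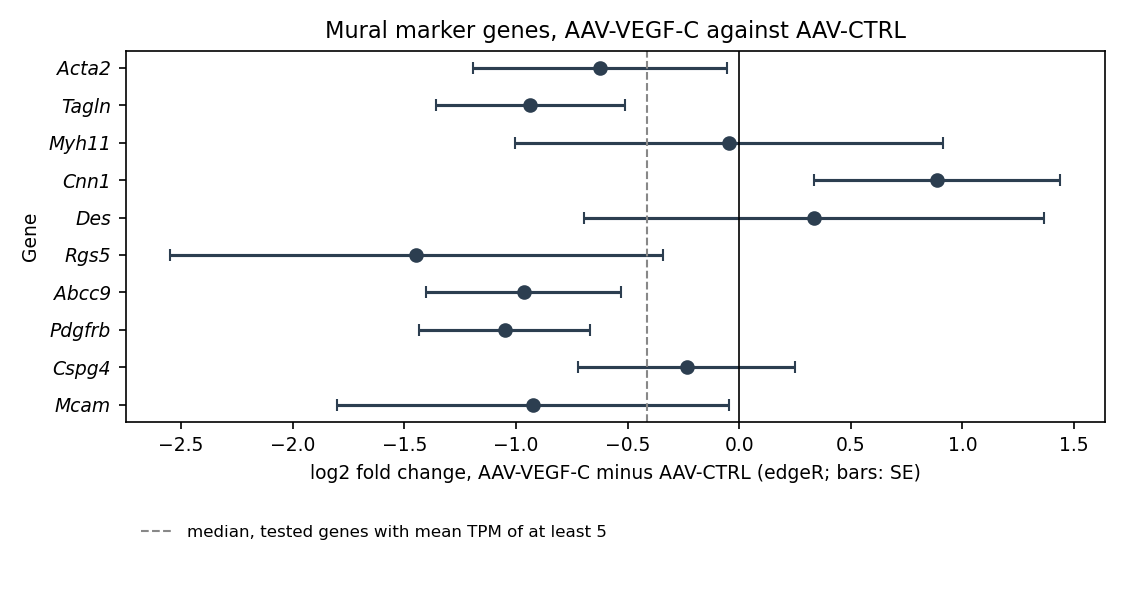
Log2 fold change of each mural marker gene, AAV-VEGF-C minus AAV-CTRL, from the edgeR fit, with bars of 1 SE; the dashed line is the median of tested genes averaging 5 TPM or more. Points range from -1.45 for *Rgs5* to 0.89 for *Cnn1*, and no gene passed the adjusted threshold.

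The contractile genes come first. *Acta2* (chr19:34241090-34255590, minus strand, GRCm38) encodes smooth muscle alpha-actin, the thin-filament actin of smooth muscle. It had 12.5, 27.8 and 78.2 TPM in AAV-CTRL 1, 2 and 3 and 2.09, 7.26 and 21.3 TPM in AAV-VEGF-C 1, 2 and 3. AAV-VEGF-C 3 lay above AAV-CTRL 1, so the groups overlapped, although the AAV-VEGF-C library was the lower one in all 3 experiments. On the TMM scale the within-experiment log2 differences were -0.70, -0.78 and -0.61, closer to each other than for any other member with 3 values. The fitted log2 fold change was -0.62 ± 0.57 (SE, adjusted p = 0.516). With the replicate block it was -0.69 ± 0.28 (SE, unadjusted p = 0.0330 and adjusted p = 0.123 in edgeR). The estimated counts of *Acta2* held decimals in all 6 libraries, as reads shared with near-identical genes give, and actin genes are close in sequence, so its level is uncertain to that extent.

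Many smooth muscle genes carry CArG boxes, the sites bound by serum response factor (SRF) with its coactivator myocardin, and these are shown for the gene that leads the contractile set and for *Myl9*, the related gene with the most negative fold change. The 300 bases from 250 before to 50 after each RefSeq gene start (GRCm38.p6) were searched on both strands for the CArG box with at most 1 G or C in its core of 6 A or T letters. Promoters of 7 of the 10 members were in the table, for *Acta2*, *Rgs5*, *Cspg4*, *Abcc9*, *Des*, *Cnn1* and *Mcam*. Of these only *Acta2* held a match, against 9.98% of 32851 promoters. It held 2 matches, and 0.822% of promoters held 2 or more. Of 13 promoters of the contractile list described below, 1 (*Myl9*) held a match. The *Acta2* sites lie at chr19:34255438-34255467 and chr19:34255388-34255417 on the minus strand, inside the first exon as GENCODE M21 draws it. Those of *Myl9*, which encodes a regulatory myosin light chain, lie upstream of that annotation's gene start at chr2:156775293-156775322 and chr2:156775355-156775384 on the plus strand. Each is printed 5′ to 3′ as 30 bases with the box in capitals, and a match is a description of letters, not of binding.
Acta2 site 1: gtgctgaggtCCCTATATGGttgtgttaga
Acta2 site 2: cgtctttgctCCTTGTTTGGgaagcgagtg
Myl9 site 1: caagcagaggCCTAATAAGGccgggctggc
Myl9 site 2: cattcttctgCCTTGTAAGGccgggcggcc

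*Tagln* (chr9:45929619-45936058, minus strand) encodes transgelin, an actin-binding protein of smooth muscle. Its TPM was 10.1, 17.3 and 36.4 in AAV-CTRL 1, 2 and 3 against 1.5, 3.73 and 13.0 in AAV-VEGF-C 1, 2 and 3. As with *Acta2*, only AAV-VEGF-C 3 reached into the AAV-CTRL range, and AAV-VEGF-C was lower in each experiment, with TMM-scaled log2 differences of -0.57, -1.28 and -1.0. The fitted value was -0.93 ± 0.42 (SE, adjusted p = 0.198). *Tagln* kept close to *Acta2* within a library, at 0.466 to 0.810 of its TPM in AAV-CTRL against 0.513 to 0.715 in AAV-VEGF-C. *Tagln* overlaps *Pcsk7* and *Gm48529* on the other strand, *Abcc9*, *Des* and *Mcam* overlap 1 gene each in the same way, and the use of strand in counting was not stated, so these levels are uncertain to that extent.

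*Myh11* (chr16:14194535-14291372, minus strand) encodes the smooth muscle myosin heavy chain, among the markers most restricted to smooth muscle. It had 0.266, 6.24 and 14.4 TPM in AAV-CTRL 1, 2 and 3 and 1.34, 2.72 and 6.43 TPM in AAV-VEGF-C 1, 2 and 3. AAV-CTRL 1 was the lowest of the 6 libraries, 54.2-fold below AAV-CTRL 3 on 20 counts. The direction therefore differed between experiments, with TMM-scaled log2 differences of 3.11, -0.47 and -0.24, and the fitted log2 fold change of -0.05 ± 0.96 (SE, adjusted p = 0.986) had an error far wider than its size. Without AAV-CTRL 3 it was 0.59, without AAV-CTRL 1 it was -0.65, and without AAV-VEGF-C 3 it was -0.71. Without both libraries of experiment 1 it was -0.38 ± 0.39 (SE). The ratio of *Acta2* to *Myh11* in TPM was 46.8 in AAV-CTRL 1 against 4.46 and 5.42 in AAV-CTRL 2 and 3. It was 1.57, 2.67 and 3.31 in AAV-VEGF-C 1, 2 and 3, below every AAV-CTRL library. This pair was picked after the values were seen and was not tested.

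*Cnn1* (chr9:22099216-22109630, plus strand) encodes calponin 1, which binds actin and restrains myosin. It was scarce, with 0.705, 1.54 and 2.36 TPM in AAV-CTRL 1, 2 and 3 and 1.24, 3.29 and 2.05 TPM in AAV-VEGF-C 1, 2 and 3. It was the only member with a higher mean TPM in AAV-VEGF-C, yet the groups overlapped and the AAV-VEGF-C values rest on 1, 8 and 19 counts. The fitted log2 fold change was 0.89 ± 0.55 (SE, adjusted p = 0.332). TMM-scaled values were higher in AAV-VEGF-C in all 3 experiments, but TPM was lower there in experiment 3.

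*Des* (chr1:75360329-75368579, plus strand) encodes desmin, the intermediate filament of muscle. It had 0.218, 1.33 and 3.31 TPM in AAV-CTRL 1, 2 and 3 and 0, 0.578 and 2.62 TPM in AAV-VEGF-C 1, 2 and 3. The count of 0 in AAV-VEGF-C 1 allows up to 5.31 CPM (counts scaled to the library total) there (3 counts, counting error only). At the AAV-CTRL mean CPM, 3.41 counts would fall in that library, close to the 3 counts that a count of 0 allows. The fitted value was 0.34 ± 1.03 (SE, adjusted p = 0.875), and its sign changed with the test used.

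Among the pericyte genes, *Rgs5* (chr1:169655501-169695813, plus strand), which encodes a regulator of G protein signalling typical of pericytes, varied most. Its TPM was 0.514, 17.8 and 56.7 in AAV-CTRL 1, 2 and 3 against 1.17, 4.92 and 7.37 in AAV-VEGF-C 1, 2 and 3. AAV-CTRL 1 had the lowest value, 110-fold below AAV-CTRL 3, while AAV-CTRL 2 and 3 lay above every AAV-VEGF-C library. With all libraries the log2 fold change was -1.45 ± 1.10 (SE, adjusted p = 0.434), and the TMM-scaled differences were 2.60, -1.15 and -2.11 in experiments 1, 2 and 3. Without AAV-CTRL 1 it was -2.06 ± 0.51 (SE, adjusted p = 0.0466), in a fit that called 0.264% of genes lower. Without both libraries of experiment 1 it was -1.81 ± 0.43 (SE, adjusted p = 0.0393), in a fit that called 0.572% of genes lower, and *Rgs5* was the one member called in either. With the filter on low counts, whether edgeR called *Rgs5* thus rested on the library labelled AAV-CTRL 1. With no filter it was called with all libraries (adjusted p = 0.00263), as were *Abcc9*, *Tagln* and *Pdgfrb*, in a fit that called 2.64% of genes lower. In that fit the SE of *Rgs5* was 0.44, against 1.10 in the main fit, despite its 110-fold spread within AAV-CTRL. For *Abcc9*, *Tagln* and *Pdgfrb* the SEs were 0.47, 0.46 and 0.44 with no filter against 0.44, 0.42 and 0.38.

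*Abcc9* (chr6:142587862-142702315, minus strand) encodes SUR2, the regulatory subunit that forms the potassium channel of pericytes with the product of *Kcnj8*. It had 1.62, 3.16 and 5.76 TPM in AAV-CTRL 1, 2 and 3 and 0.262, 1.89 and 1.47 TPM in AAV-VEGF-C 1, 2 and 3. AAV-CTRL 2 and 3 lay above all AAV-VEGF-C libraries, and AAV-CTRL 1 fell between them. The log2 fold change was -0.97 ± 0.44 (SE, adjusted p = 0.198), with TMM-scaled differences of -0.80, -1.05 and -1.13 in the 3 experiments. *Kcnj8* had a fitted value of -0.75 ± 0.44 (SE, adjusted p = 0.305).

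*Pdgfrb* (chr18:61045150-61085061, plus strand) encodes the receptor through which endothelial PDGF-BB recruits mural cells, and is also made by fibroblasts. It had 47.9, 27.6 and 67.5 TPM in AAV-CTRL 1, 2 and 3 and 4.45, 9.88 and 21.9 TPM in AAV-VEGF-C 1, 2 and 3. It was the only one of the 10 genes without overlap in TPM, where 36.4% of all tested genes lay lower and 12.8% higher without overlap, and 61.4% of genes averaging 5 TPM or more lay lower. In TMM-scaled CPM, *Pdgfrb* had 514, 255 and 413 in AAV-CTRL against 153, 153 and 263 in AAV-VEGF-C, and the groups overlapped by AAV-VEGF-C 3 and AAV-CTRL 2. On that scale none of the 10 genes was free of overlap, against 39.9% of tested genes (17.6% lower and 22.3% higher). The fitted log2 fold change was -1.05 ± 0.38 (SE, unadjusted p = 0.0258 and adjusted p = 0.122 in edgeR), lower in 3 of 3 experiments, with TMM-scaled differences of -1.75, -0.74 and -0.65. DESeq2 gave an adjusted p of 0.0469 and called 1.74% of genes lower.

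*Cspg4* (chr9:56865033-56899870, plus strand) encodes the NG2 proteoglycan of the pericyte surface. It had 8.35, 4.07 and 7.11 TPM in AAV-CTRL 1, 2 and 3 and 1.34, 1.51 and 6.64 TPM in AAV-VEGF-C 1, 2 and 3. AAV-VEGF-C 3 lay within the AAV-CTRL range and the other AAV-VEGF-C libraries below it, and AAV-CTRL 1 was not low for this gene. TMM-scaled log2 differences were -0.86, -0.66 and 0.73 in experiments 1, 2 and 3. The fitted value was -0.23 ± 0.49 (SE, adjusted p = 0.80), and it turned to 0.12 when libraries were scaled on the 2000 most abundant genes.

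*Mcam* (chr9:44134469-44142727, plus strand) encodes CD146, an adhesion molecule of mural cells and of endothelium. It had 0.914, 5.38 and 13.5 TPM in AAV-CTRL 1, 2 and 3 and 0, 2.01 and 3.60 TPM in AAV-VEGF-C 1, 2 and 3. Here, too, AAV-CTRL 1 was far below AAV-CTRL 3 (14.8-fold), and the groups overlapped through that library. The absence of counts in AAV-VEGF-C 1 stands against 14.2 counts that the AAV-CTRL mean CPM would give there, but AAV-CTRL 1 itself had 5.05 CPM, below the 5.31 CPM that a count of 0 allows. The fitted log2 fold change was -0.92 ± 0.88 (SE, adjusted p = 0.536). Without AAV-CTRL 1 it was -1.41 ± 0.73 (SE, adjusted p = 0.242 in edgeR). Without both libraries of experiment 1 it was -1.07 ± 0.43 (SE, unadjusted p = 0.0397 and adjusted p = 0.153 in edgeR).

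The members did not vary together in AAV-CTRL 1. Relative to AAV-CTRL 3, TPM there was 110-fold lower for *Rgs5*, 54.2-fold for *Myh11*, 15.2-fold for *Des*, 14.8-fold for *Mcam* and 6.28-fold for *Acta2*, but 1.41-fold lower for *Pdgfrb*, and *Cspg4* was higher. The ratio of *Rgs5* to *Pdgfrb* in TPM was accordingly 0.0107 in AAV-CTRL 1, 0.646 and 0.840 in AAV-CTRL 2 and 3, and 0.263, 0.498 and 0.336 in AAV-VEGF-C 1, 2 and 3. The ratio of *Mcam* to *Pdgfrb* was 0.0191 in AAV-CTRL 1, with *Mcam* at 0 in AAV-VEGF-C 1, against 0.164 to 0.203 in the other 4 libraries. The ratio of *Cspg4* to *Pdgfrb* stayed between 0.105 and 0.303 in all 6.

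**Figure D3:**
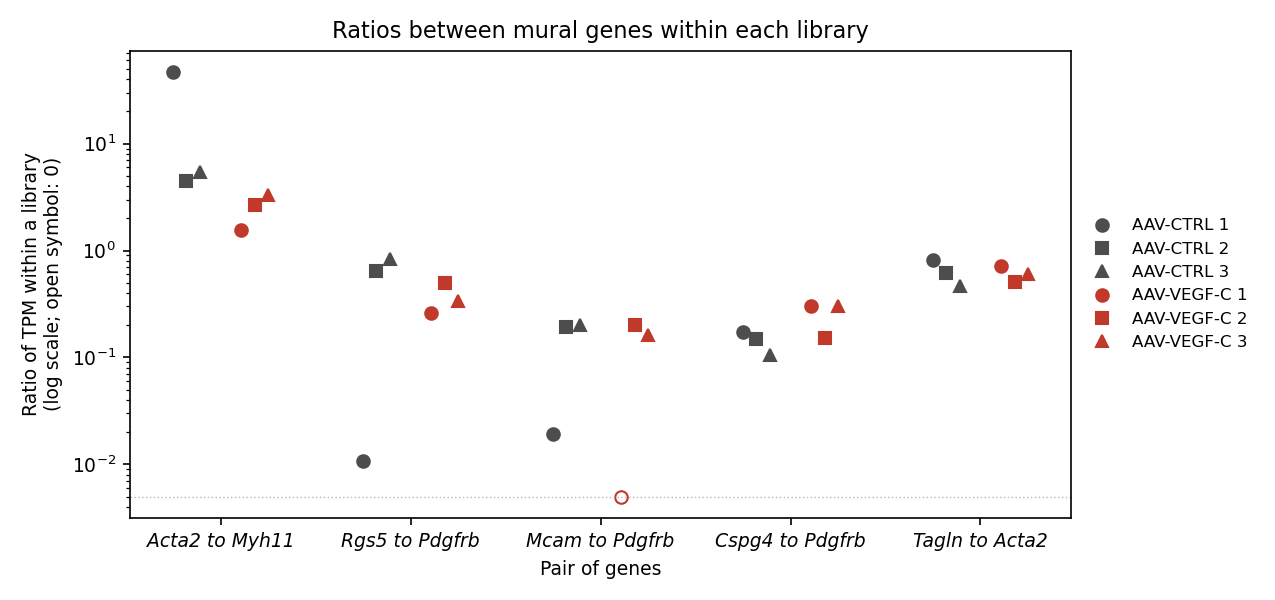
Ratio of TPM between pairs of mural genes within each library (log axis), with AAV-CTRL in grey, AAV-VEGF-C in red, and circles, squares and triangles for experiments 1, 2 and 3. AAV-CTRL 1 stands apart for *Acta2* to *Myh11* (46.8), *Rgs5* to *Pdgfrb* (0.0107) and *Mcam* to *Pdgfrb* (0.0191). The ratios of *Cspg4* to *Pdgfrb* (0.105 to 0.303) and *Tagln* to *Acta2* (0.466 to 0.810) vary less between libraries.

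Markers of other cell types moved between the same libraries. The summed TPM of 8 blood endothelial markers, led by the VEGF receptor gene *Flt1*, was 30.1, 119 and 417 in AAV-CTRL 1, 2 and 3 against 24.0, 56.8 and 54.0 in AAV-VEGF-C 1, 2 and 3, lowest in the libraries of experiment 1, as for *Rgs5*. *Mfsd2a* was at 0 in AAV-CTRL 1, and *Ly6c1* and *Slco1a4* were at 0 in AAV-VEGF-C 1. The sum of 8 leukocyte markers was 6.98, 816 and 488 TPM in AAV-CTRL and 10.9, 402 and 249 TPM in AAV-VEGF-C, again lowest in experiment 1. *Csf1r*, a macrophage receptor gene and the most abundant of them, had 1.97 TPM in AAV-CTRL 1 and 5.92 TPM in AAV-VEGF-C 1 against 130.3 to 449.9 TPM elsewhere. *Cd3e* was at 0 in AAV-CTRL 1 and 3, and *Tyrobp* in AAV-VEGF-C 1. The sum of 8 fibroblast markers was 3529, 1791 and 4209 TPM in AAV-CTRL and 402, 559 and 1361 TPM in AAV-VEGF-C, with no gene at 0 and, like *Pdgfrb*, without overlap or a low value in AAV-CTRL 1. *Mgp*, the matrix Gla protein gene and the most abundant fibroblast marker, had a fitted log2 difference of -1.35 ± 0.47 (SE, adjusted p = 0.110). Of these lists edgeR called only *Dcn*, which encodes the matrix proteoglycan decorin, among 8 fibroblast genes (log2 fold change -1.69, adjusted p = 0.0287). Of all tested genes, 0.659% were called lower and 10.5% higher. The ratio of *Pdgfrb* to *Col1a1*, a fibroblast collagen gene, was 0.0527 to 0.110 in AAV-CTRL against 0.0408 to 0.0561 in AAV-VEGF-C. The part of blood endothelium, leukocytes or fibroblasts in the mural values was not tested.

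**Figure D4:**
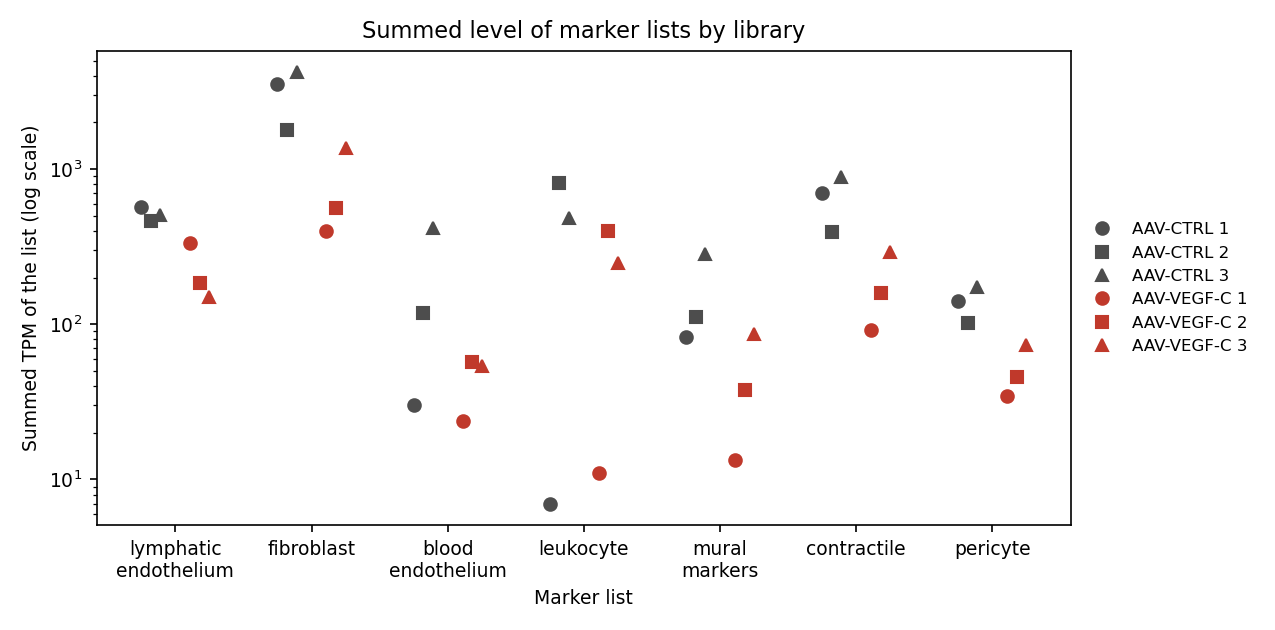
Summed TPM (log axis) of marker lists in each library, with AAV-CTRL in grey, AAV-VEGF-C in red, and circles, squares and triangles for experiments 1, 2 and 3. Leukocyte and blood endothelial sums are lowest in the circles of experiment 1, and the groups do not overlap in the sums of lymphatic endothelial, fibroblast, contractile or pericyte genes.

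Other genes of mural cells were read from lists of the contractile apparatus, pericyte markers, the SRF program and the PDGF axis. Of 47 genes 44 were tested, and 1 was higher and 0 lower in AAV-VEGF-C by edgeR, against 10.5% and 0.659% of all genes. At an unadjusted p under 0.05, 2 of the 44 were higher and 8 lower, against 19% and 9.11% of all tested genes. In the fit blocked by replicate number, 4 were lower (*Myl9*, *Tpm1*, *Pdgfd* and *Pdgfra*), in a fit that called 2.07% of genes lower. DESeq2 called 5 lower, in a fit that called 1.74% of genes lower. The median log2 fold change was -0.62 for 15 contractile genes, -0.27 for 16 pericyte genes, -0.11 for 7 genes of the SRF program and 0.30 for 6 of the PDGF axis. *Pln*, *Higd1b* and *Cox4i2* were too low to be tested.

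The gene called higher was *Kcnmb1*, which encodes the beta subunit of the large-conductance potassium channel of smooth muscle. Its counts were 0, 1 and 2 in AAV-CTRL 1, 2 and 3 against 5, 8 and 12 in AAV-VEGF-C 1, 2 and 3 (log2 fold change 5.66 ± 0.90, SE, adjusted p = 0.0193). The groups did not overlap, and the pooled CPM differed 42.4-fold, with an exact 95% interval of 12.9 to 220 for counting error only. Leaving out any one of AAV-CTRL 2, AAV-CTRL 3, AAV-VEGF-C 2 or AAV-VEGF-C 3 raised the adjusted p to between 0.0507 and 0.0772. Over all genes those fits called 0, 0, 8 and 320 higher, against 1835 in the main fit. *Kcnmb1* met the filter on low counts through AAV-VEGF-C alone (at least 2.04 CPM in 3 libraries, and in 0 of AAV-CTRL), so that the filter favoured a call of higher. Of 3404 tested genes averaging under 1 TPM, as it did, 37.9% were called higher, with a median log2 fold change of 2.17. *Kcnmb1* overlaps *Kcnip1* on the other strand, and the study named it from these libraries, so it is not independent evidence.

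*Cald1*, the caldesmon gene and the most abundant of the contractile list, had 359, 151 and 332 TPM in AAV-CTRL 1, 2 and 3 and 37.9, 57.7 and 109 TPM in AAV-VEGF-C 1, 2 and 3. The groups did not overlap in TPM, and the log2 fold change was -1.14 ± 0.39 (SE, adjusted p = 0.108). *Myl9* had -1.41 ± 0.47 (SE, adjusted p = 0.101) and *Tpm1*, a tropomyosin gene, -1.07 ± 0.32 (SE, adjusted p = 0.0728). *Vtn*, which encodes vitronectin and led the pericyte list, had 40.5, 31.9 and 46.0 TPM in AAV-CTRL against 5.81, 7.20 and 17.8 TPM in AAV-VEGF-C (log2 fold change -0.95 ± 0.34, SE, adjusted p = 0.120). *Klf4*, the transcription factor at the highest level in the SRF list, had -0.52 ± 0.31 (SE, adjusted p = 0.317). In the PDGF axis, *Pdgfrl*, which encodes a receptor-like protein, had the highest mean level and a value of 1.14 ± 0.75 (SE, adjusted p = 0.362). Its mean TPM was lower in AAV-VEGF-C (29.1 against 41.3), with TMM-scaled differences of 1.95, 0.54 and -0.59 in experiments 1, 2 and 3. *Pdgfd* had -1.37 ± 0.38 (SE, adjusted p = 0.0578) and *Pdgfra* -1.16 ± 0.36 (SE, adjusted p = 0.0790), while 4 genes of the axis were positive. *Pdgfb*, the endothelial ligand of the receptor that *Pdgfrb* encodes, had 1.18, 6.75 and 17.4 TPM in AAV-CTRL and 1.09, 9.26 and 3.44 TPM in AAV-VEGF-C, with the lowest values in both libraries of experiment 1 and overlapping groups.

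**Figure D5:**
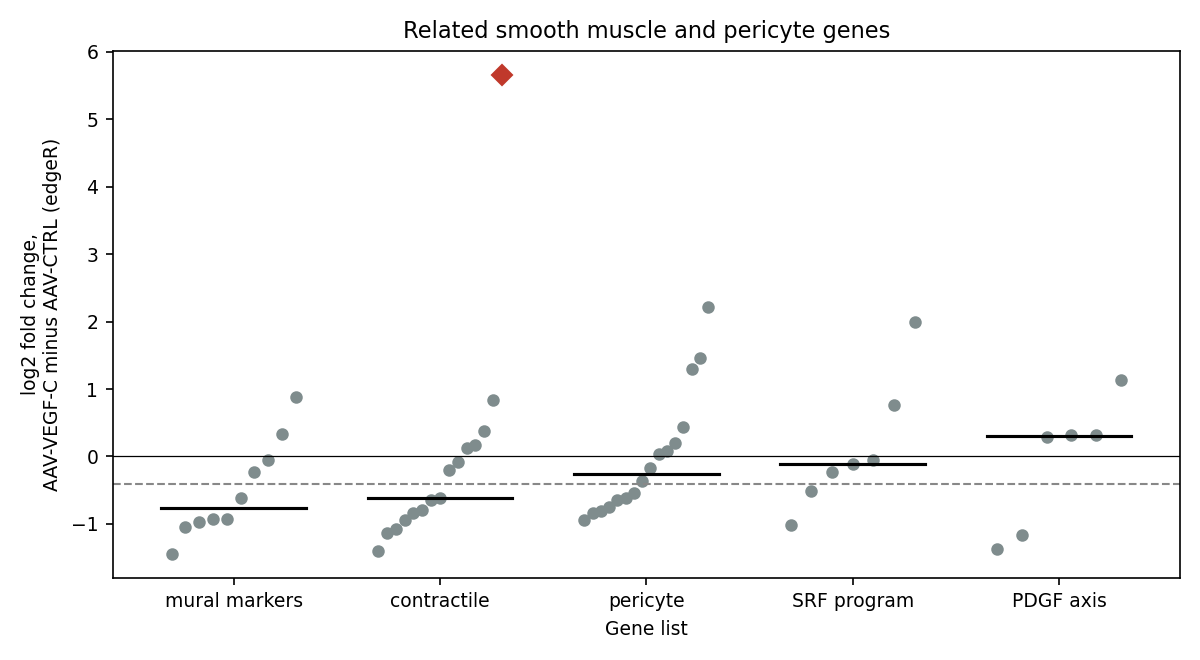
Log2 fold change (AAV-VEGF-C minus AAV-CTRL, edgeR) of the mural markers and of related genes by list, with black bars at the list medians and a dashed line at the median of tested genes averaging 5 TPM or more. The red diamond is *Kcnmb1* at 5.66, the one gene called, and the list medians run from -0.77 for the mural markers to 0.30 for the PDGF axis.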

How the data were processed

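The authors deposited unscaled estimated counts and TPM values for each gene. FastQC, Trimmomatic, DRAGEN, Picard and mm10 are named in the submitters' processing notes, without roles. The kit is stranded, and whether counting used strand or molecular identifiers is not given in the sources used here. Gene identifiers equalled those of GENCODE M21 (GRCm38) with version in 98.1% of 55401 rows, and positions came from it. Promoters came from RefSeq (GRCm38.p6).

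Estimated counts were rounded. Genes were kept by filterByExpr, scaled by TMM and tested by the quasi-likelihood test of edgeR 4.0.16 (R 4.3.3) with Benjamini-Hochberg adjustment at 0.05 over all 17459 genes. DESeq2 1.42.0, the study's tool, and limma 3.58.1 on log2(TPM + 1) and log2(TPM + 0.1) were alternatives. On simulated data the edgeR step (16865 genes) recovered 76% of genes changed 4-fold and 87% changed 8-fold, with 2.40% false calls. The simulation gave each gene a dispersion of 0.1 and no difference between experiments. It changed only genes expected above 1 count in the smallest library. Some members varied far more between libraries of a group, so these shares do not apply to them. The members, lists and tests were chosen with earlier results of these data known. The text names all members, list genes called or with the highest TPM of their list, sort markers, and the 5 genes most like *Acta2*. Other genes of the lists, and pairs of genes set as ratios, were named after their values were seen. Lists were textbook markers.

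Replicate numbers mark repeats of the experiment in the labels. Across genes, which are not independent, the residuals of the AAV-CTRL and AAV-VEGF-C library with the same number correlated at 0.33, 0.22 and 0.16 in experiments 1, 2 and 3, so the numbers were taken to pair the libraries, although AAV-CTRL 3 correlated with AAV-VEGF-C 2 at 0.19, above its own number. Total counts rose with the number in both groups, and the part of depth in these correlations was not tested. Libraries of a group differed beyond sampling noise in every pair (chi-square over degrees of freedom at or above 7.70). The floor of detection was 3 counts, and intervals cover counting error only.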

Additional observations from a re-analysis of the deposited data

How the results depend on the processing

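No member was called higher under any of the alternatives run. The count of members called lower, 0 in the main analysis, was 4 without a filter on low counts, 1 with DESeq2 (*Pdgfrb*), 1 with both libraries of experiment 1 left out (*Rgs5*, a setting chosen after seeing the data), and 0 to 1 when each library was left out. The numbers were taken to pair the libraries, and with the replicate block the count stayed at 0, with 5 members lower at an unadjusted p under 0.05, against 11.3% of tested genes. Without experiment 1, 4 members (*Tagln*, *Rgs5*, *Abcc9* and *Mcam*) were lower at an unadjusted p under 0.05 in edgeR, as were 1554 of 19222 genes. Over the alternatives the adjusted p ranged from 0.00263 to 0.835 for *Rgs5* and from 0.0266 to 0.609 for *Pdgfrb*. Scaling on the 2000 most abundant genes moved the median of all genes to 0.35, and *Cspg4* to 0.12 and *Myh11* to 0.33. *Cspg4* was also positive at 0.15 with counts drawn down once to the smallest total, at 0.18 without experiment 1, and between -0.74 and 0.21 when each library was left out. *Myh11* was 0.31 among genes averaging 5 TPM or more, 0.40 with the block, 0.71 drawn down and -0.71 to 0.59 with each library left out. *Des* was -0.37 and -1.02 by limma with pseudocounts of 1 and 0.1, -0.021 with the block, and -0.90 to 0.83 with each library left out. *Acta2*, *Tagln*, *Rgs5*, *Pdgfrb*, *Abcc9* and *Mcam* were negative, and *Cnn1* positive, in every alternative that gave a value. Of related mural genes, 1 was higher in the main analysis, and 2 with scaling on the most abundant genes and with DESeq2. With each library left out, 0 to 1 were higher. The count was 0 among genes averaging 5 TPM or more and drawn down, but *Kcnmb1* was not tested in either fit. Those fits tested 23 and 26 of the related genes, and 5 and 7 of the members. The count lower, 0 in the main analysis, was 9 without the filter and 5 with DESeq2. It was 3 and 2 by limma with pseudocounts of 1 and 0.1, and 4 with the block. Over all genes, 1175 of 44563 were lower without the filter and 504 of 29007 with DESeq2. Of 17459 genes, limma called 434 and 163 lower with those pseudocounts, and the block 362. The causes of the other shifts were not tested. Over all genes, edgeR called 0 without AAV-CTRL 2 or AAV-CTRL 3. It called 16 higher and 0 lower drawn down, 8 and 0 without AAV-VEGF-C 2, and 9 and 0 among genes averaging 5 TPM or more. A lack of calls in those settings says little. Only 8 genes were lower without AAV-VEGF-C 3, and 8 with scaling on the 2000 most abundant genes, so a lack of lower calls there says little too. The 564475 counts of AAV-VEGF-C 1 limit *Des*, *Cnn1* and *Mcam* most.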

Other observations

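Among 7233 tested genes averaging 5 TPM or more, those whose TMM-scaled log2 CPM followed *Acta2* most closely over the 6 libraries were *Cox7a2* (Pearson r 0.97), *Ceacam1* (0.97), *Spata13* (0.96), *Cox17* (0.95) and *Pcmt1* (0.94). These are descriptions over 6 points that share library and depth, and 27 genes exceeded 0.9. *Tagln* came 19th with r 0.91, and *Rgs5*, *Myh11* and *Pdgfrb* had 0.71, 0.60 and 0.52.

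Striated muscle genes were read because desmin and actins are made there as well. The summed TPM of 10 skeletal muscle genes was 3.75 to 4.64 in AAV-CTRL against 5.40 to 19.3 in AAV-VEGF-C. Only 3 of the 10 were tested. Most averaged under 1 TPM, a class in which 37.9% of tested genes were called higher. *Acta1*, which encodes skeletal muscle actin, was called higher (log2 fold change 4.72, adjusted p = 0.0387), but it met the filter on low counts through AAV-VEGF-C alone, which favours such a call, and most of its counts lay in AAV-VEGF-C 3, with 90.5 estimated counts against 2.09 and 3.40 in AAV-VEGF-C 1 and 2. In the list of 8 Schwann cell and glial genes, which summed to 48.5 to 103 TPM in AAV-CTRL and 12.0 to 51.0 TPM in AAV-VEGF-C, *Sox10* was called higher (log2 fold change 2.60, adjusted p = 0.0328). Its TPM was 0.162, 0.507 and 1.35 in AAV-CTRL 1, 2 and 3 against 1.80, 2.61 and 3.58 in AAV-VEGF-C 1, 2 and 3, without overlap. *Pmp22*, the most abundant gene of that list, had -0.57 ± 0.39 (SE, adjusted p = 0.384). None of the 8 lymphatic endothelial genes was called, nor passed an unadjusted p under 0.05 in edgeR. Of all tested genes 11.2% were called and 28.1% passed the unadjusted threshold, so a lack of calls among 8 genes says little.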
